A study of Mus musculus with 2 samples.

Results

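The genes of the mouse mitochondrial genome and their near-identical copies in the nuclear genome were described in the heart at embryonic day 14.5. The members were the 37 genes whose symbol starts with mt- (13 coding for protein, 2 for rRNA and 22 for tRNA) and 6 unprocessed pseudogenes of chromosome 1 (Gm29216, Gm28661, Gm10925, Gm28437, Gm28438 and Gm28439), so 43 of the 43346 gene rows. Members were chosen by symbol with the TPM and expected counts of both libraries already known, so the levels below are a description. Total RNA was sequenced from 2 libraries, each made from a single heart of a B6NCrl embryo (a C57BL/6 substrain), with no treatment. The hearts were collected on day 15 (replicate 1) and day 17 (replicate 2) of the same July, and the labels mark the sex as mixed although each library is from 1 heart. Both hearts form 1 group, so there is no tested condition, and the comparison is between 2 embryos that also differ in collection day.

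Mitochondrial DNA is a small circle present in many copies per cell. It is transcribed from both strands into long precursors, and the tRNAs that lie between most of the coding genes are cut out to release the mRNAs and rRNAs. All of its proteins are subunits of the respiratory chain or of ATP synthase, which otherwise are built from nuclear-encoded subunits, and heart muscle depends on this chain for its ATP. Pieces of mitochondrial DNA have also been inserted into nuclear chromosomes, where they remain as pseudogenes.

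The libraries held 2.75e+07 and 2.79e+07 expected counts on gene rows in replicates 1 and 2 (reads per gene, estimated by the authors, who shared reads among the genes they fit). All 10 cardiomyocyte markers examined, among them Actc1, Tnnt2 and Myh7, were at 1 TPM or more in both libraries, and TPM is the authors' level per effective length, scaled to a fixed total in each library. The 10 erythroid markers summed to 61171 TPM in replicate 1 and 34791 TPM in replicate 2. Each of the 43 members had a single transcript in the transcript tables, with the same expected count as its gene row. With bulk tissue, fewer cells of a type and less RNA per cell cannot be told apart.

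The 6 copies lie in order within 1 segment of the nuclear genome. The segment spans chr1:24611535-24616197 on the minus strand (4663 nt, GRCm38, GENCODE M21), and the copies follow the order of mt-Co1, mt-Co2, mt-Atp6, mt-Co3, mt-Nd3 and mt-Nd4. They match a stretch of 4662 nt of the mitochondrial genome, chrM:6381-11042. A further unprocessed pseudogene in the same segment, Gm10222 at chr1:24612407-24612700, matched mt-Nd4l over its whole 294 nt. It is outside the 6 listed copies, it was found after the values had been seen, and it is given beside them. No copy of mt-Atp8 is annotated in the segment.

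Gm28661, Gm10925, Gm28437 and Gm28439 had no substitution against their source gene over the aligned part, and neither did Gm10222. As annotated, Gm28437 differs from mt-Co3 only by lacking the last base. That base is an incomplete stop codon, which in mitochondrial mRNA is completed by the poly(A) tail. The annotated Gm28661, Gm10925 and Gm10222 each lack the last 3 bases of their source gene, which are its stop codon. For Gm10222 this stop codon does lie in the segment. It falls in the first 7 bases of Gm28439, which equal the overlap of mt-Nd4l and mt-Nd4. The bases after the annotated ends of the other copies were not examined. The ends of 3 pairs are shown because they hold all that separates gene from annotated copy. The bases that the annotated copy lacks are in capitals (RNA strand, 5′ to 3′).
mt-Co3, chrM:9341-9390, plus strand: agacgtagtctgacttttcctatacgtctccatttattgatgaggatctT
Gm28437, chr1:24613189-24613237, minus strand: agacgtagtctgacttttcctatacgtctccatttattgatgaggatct
mt-Co2, chrM:7647-7696, plus strand: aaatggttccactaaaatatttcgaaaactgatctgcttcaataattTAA
Gm28661, chr1:24614885-24614931, minus strand: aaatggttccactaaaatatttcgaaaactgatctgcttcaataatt
mt-Atp6, chrM:8558-8607, plus strand: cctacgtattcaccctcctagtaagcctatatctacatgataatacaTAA
Gm10925, chr1:24613974-24614020, minus strand: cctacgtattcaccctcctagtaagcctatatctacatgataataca

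Base substitutions were found in 2 pairs. Counted from the first base of mt-Nd3, Gm28438 carries T3C in the first codon, and as annotated it also lacks the last 3 bases. The starts of both are shown with that base in capitals.
mt-Nd3, chrM:9459-9498, plus strand: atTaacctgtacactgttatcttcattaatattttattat
Gm28438, chr1:24613080-24613119, minus strand: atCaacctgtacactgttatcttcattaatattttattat
Gm29216 corresponds to bases 1054 to 1545 of mt-Co1, and its 6 substitutions (T1056A, C1057T, A1059G, A1060G, C1062A and A1066T, counted from the first base of mt-Co1) all lie near its start. The first 60 aligned bases are shown with the substituted bases in capitals.
mt-Co1, chrM:6381-6440, plus strand: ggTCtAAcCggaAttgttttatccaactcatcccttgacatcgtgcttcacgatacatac
Gm29216, chr1:24616138-24616197, minus strand: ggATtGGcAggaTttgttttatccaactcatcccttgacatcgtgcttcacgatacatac

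In the deposited tables the effective length was the row's length less 99 nt, within 0.1 nt, in 41285 of 41288 rows where it was above 0. This is the number of start positions of a 100 nt window. Counted in such windows, mt-Co3 had 1 of 685 that Gm28437 lacks, and Gm28437 had 0 that mt-Co3 lacks. mt-Co2 and mt-Atp6 each had 3 windows of their own, against 0 in their copies. mt-Nd3 had 6 windows of its own and Gm28438 had 3. mt-Co1 had 1066 windows of its own and Gm29216 had 13, and mt-Nd4 had 502 against 0 in Gm28439. Reads from the other windows fit gene and copy equally well.

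The reads of mt-Co3, a core subunit of cytochrome c oxidase, were given mostly to its copy. The row of mt-Co3 held 34179 and 37706 expected counts in replicates 1 and 2, and that of Gm28437 held 207591 and 211431, which is 85.9% and 84.9% of the pair. The posterior mean, a further estimate in the deposited tables, put 64.3% and 64.8% of the pair on the copy, with a posterior SD of 24.6 and 25.1 percentage points. The deposited credibility interval of mt-Co3 ran from 1743 to 12541 TPM in replicate 1 and from 1691 to 13082 TPM in replicate 2, a range that holds most of the pair's reads at one end and few of them at the other.

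For mt-Co2 and mt-Atp6 the split was also wide. mt-Co2, which carries a copper centre of cytochrome c oxidase, had 3930 and 4695 TPM on its own row, and Gm28661 had 4376 and 3612 TPM. The copy held 52.6% of the pair's reads in replicate 1 and 43.4% in replicate 2, so the larger row was not the same one in both libraries. The posterior SD was 14.6 percentage points in replicate 1, larger than that difference. mt-Atp6, a subunit of the proton channel of ATP synthase, had 12299 and 11976 TPM, and Gm10925 had 1032 and 1397 TPM. The copy's share was 7.70% and 10.4% by expected counts and 21.8% and 22.3% by posterior means, with a posterior SD of 12.4 and 12.2 percentage points.

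The 2 short complex I genes were given fewer reads than their copies. mt-Nd3 had 798 and 594 TPM, while Gm28438 had 1890 and 2083 TPM, or 70.1% and 77.6% of the pair's reads. By posterior mean the copy's share was 70.3% and 76.4%, with a posterior SD of 2.84 and 3.56 percentage points. The deposited credibility intervals of mt-Nd3, 639 to 920 TPM in replicate 1 and 472 to 823 TPM in replicate 2, overlapped. No shift of the split between the libraries is therefore read from these shares. mt-Nd4l had 157 and 117 TPM, the lowest level of the 13 mRNAs on its own row. Gm10222, outside the 6 listed copies, had 1446 and 1484 TPM, or 90.1% and 92.6% of the pair's reads. mt-Nd4l is shown whole because only its last 3 bases, in capitals, are absent from the annotated Gm10222.
mt-Nd4l, chrM:9877-10173, plus strand: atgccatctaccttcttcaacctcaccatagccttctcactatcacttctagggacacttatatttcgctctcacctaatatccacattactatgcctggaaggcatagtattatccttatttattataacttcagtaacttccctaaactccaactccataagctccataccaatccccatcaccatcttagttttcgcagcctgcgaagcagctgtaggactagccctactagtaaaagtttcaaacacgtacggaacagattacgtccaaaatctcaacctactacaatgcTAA

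The estimates for Gm28439 and Gm29216 had small posterior SDs. Gm28439, which equals the first 876 bases of mt-Nd4, was listed at 0 in replicate 1 and had 9.17 expected counts in replicate 2, against 68568 and 70983 for mt-Nd4. Gm29216, which matches the end of mt-Co1, had 48566 and 52559 expected counts with a posterior SD of 218 and 219 reads. Per start position this was 124 and 134 reads on Gm29216, beside 118 and 120 on mt-Co1, so the estimates put 242 and 254 reads per position on the shared end of mt-Co1. These are row counts divided by effective length, which assumes even coverage along a row. For mt-Nd4, whose copy held almost no reads, the row average was 53.6 and 55.5. Which DNA the reads of the shared parts came from was not tested.

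**Figure D1:**
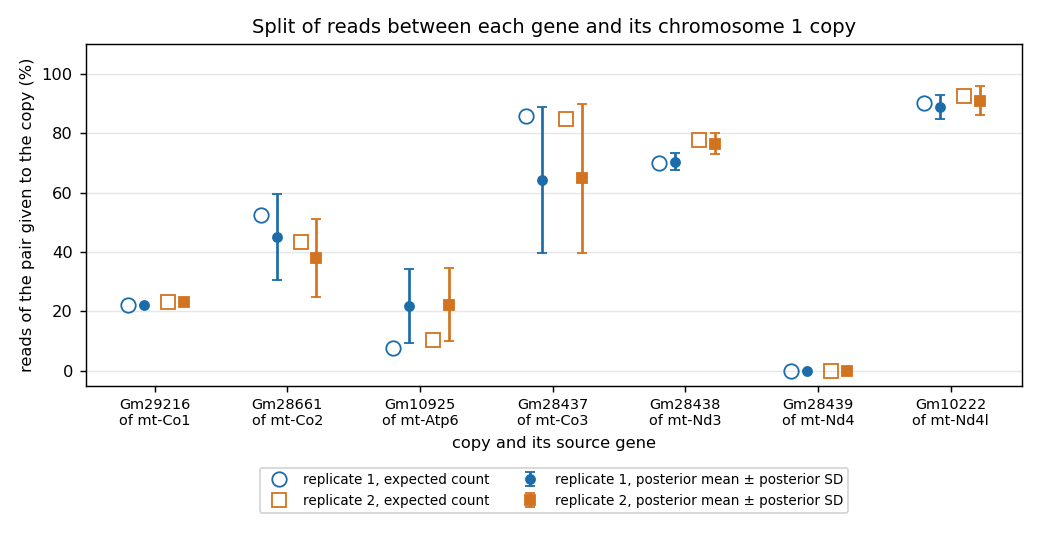
Share of the reads of each pair that was given to the chromosome 1 copy (%), by expected count (open symbols) and by posterior mean with the posterior SD as bars (filled symbols), for replicate 1 (circles) and replicate 2 (squares). The bars are widest for Gm28437 (24.6 and 25.1 percentage points), and those of Gm29216 and Gm28439 are too short to be seen.

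Other annotated pseudogenes held few such reads. Besides the 7 copies, 15 pseudogenes with a row in the tables shared at least 1 run of 25 bases with a mitochondrial gene, and 2 of them had 10 or more expected counts in both libraries. These were Gm13340 (64.8 and 62.7 counts) and Gm13341 (37.9 and 25.3 counts), both on chromosome 2, which share 53.7% and 54.0% of their 25-base runs with mt-Co1 and mt-Co2.

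The split was uncertain for several pairs, and the origin of the shared reads was not tested, so each gene was summed with its copy. For mt-Co1 and mt-Nd4, whose split had a posterior SD below 0.1 percentage points, this was done to treat all pairs alike. By summed TPM the 13 mRNAs had a median of 5402 ± 187 TPM (SD, n = 2), with 5534 TPM in replicate 1 and 5270 TPM in replicate 2. Without the copies the median was 2600 ± 54.0 TPM. A summed TPM counts a read on a short copy more heavily than one on its longer source gene, which for mt-Co1 raised the level to 11819 ± 370 TPM. Levels below therefore give the summed reads per effective length of the source gene, which for mt-Co1 was 7353 ± 137 TPM. For the other pairs the 2 scales differed by at most 1.01-fold, and mt-Nd4l is summed with Gm10222.

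Per effective length, the mRNAs of complexes IV and V were ahead of those of complexes III and I. mt-Co3 was highest at 16868 and 17291 TPM, followed by mt-Atp6 at 13326 and 13366 TPM. mt-Co2 was at 8284 and 8289 TPM. mt-Co1, the catalytic subunit of cytochrome c oxidase, was at 7256 and 7450 TPM. mt-Cytb, the one mitochondrial subunit of complex III, was at 5891 and 5907 TPM. On this scale the order of the 13 mRNAs was the same in both libraries, and the values of no neighbours in it overlapped.

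mt-Atp8 and mt-Atp6 are read from 1 mRNA and share 43 bases. These are printed with the first codon of mt-Atp6 and the stop codon of mt-Atp8 in capitals.
mt-Atp8, chrM:7927-7969, plus strand: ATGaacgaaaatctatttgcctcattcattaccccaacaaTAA
mt-Atp8, at 204 nt the shortest of the 13 coding genes, was at 8757 and 8592 TPM, at place 3 among the mRNAs, on an effective length of 105 nt. That was 0.657 and 0.642 of the level of mt-Atp6 with its copy. Per full length it was at place 7, below mt-Cytb and mt-Nd1, with 94.3 and 93.0 reads per nt, or 0.396 and 0.387 of mt-Atp6 with its copy.

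The complex I genes, which code for membrane subunits of NADH dehydrogenase, held the lower places. mt-Nd1, the first coding gene after the rRNAs, was at 5534 and 5270 TPM. mt-Nd3 with its copy was at 2665 and 2652 TPM, and mt-Nd4 with its copy was at 2562 and 2639 TPM. mt-Nd4l with Gm10222 was at 1581 and 1579 TPM, and mt-Nd2 at 1521 and 1557 TPM. mt-Nd4l and mt-Nd4 overlap by 7 bases and share an mRNA. Their level ratio was 0.617 and 0.598 with the copies, against 0.0612 and 0.0445 on their own rows.

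mt-Nd5 and mt-Nd6 were lowest, at 978 and 986 TPM for mt-Nd5 and 1104 and 1162 TPM for mt-Nd6. mt-Nd6 is the only coding gene on the other strand of the circle and overlaps mt-Nd5 by 14 bases. It was at 0.193 and 0.208 of the median of the other 12 mRNAs. Its RNA held 28.1% G and 5.97% C, while in mt-Nd5 G was 9.98% and C was 27.1%. Whether the counting used strand is not given in the sources used here, so reads of mt-Nd6 and of RNA antisense to it cannot be told apart. From mt-Co3 to the lowest gene the span was 17.2-fold in replicate 1 and 17.5-fold in replicate 2, against 78.5-fold and 102-fold on the genes' own rows.

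**Figure D2:**
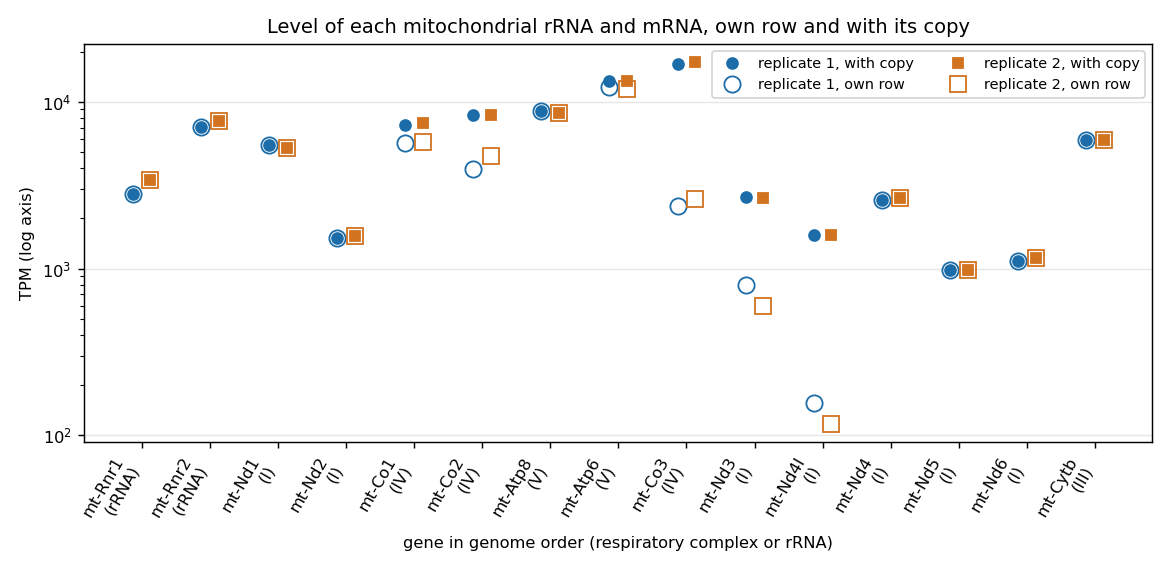
TPM on a log axis of the 2 rRNAs and 13 mRNAs in genome order, for replicate 1 (circles) and replicate 2 (squares), on the gene's own row (open) and with the reads of its copy per effective length of the source gene (filled). Filled symbols lie above open ones for the genes whose copy held reads, by the most at mt-Co3, mt-Nd3 and mt-Nd4l, and the filled symbols of the 2 hearts lie close together.

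The rRNAs, which form the RNA of the 2 mitochondrial ribosome subunits, were measured at mRNA-like levels. The large-subunit rRNA mt-Rnr2 was at 7039 and 7678 TPM, and the small-subunit rRNA mt-Rnr1 was at 2801 and 3392 TPM. mt-Rnr2 was 2.51-fold and 2.26-fold above mt-Rnr1, and a mitochondrial ribosome holds both in equal number. Both together had 23.6 and 26.1 reads per 100 reads of the mRNAs with copies. How rRNA was handled in the library preparation is not given in the sources used here.

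The 22 tRNA genes gave no measurement. They are 59 to 75 nt long, and all 28403 rows shorter than 100 nt in the tables were listed at 0 in both libraries. The RNA size range of the labels was above 200 nt. The zeros follow from the effective length of 0 and carry no information on tRNA abundance.

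The mitochondrial transcripts took a similar part of both libraries. The 43 members held 5.09% of the counts on gene rows in replicate 1 (5.08 to 5.10 as a Wilson 95% interval) and 5.18% in replicate 2, with 5.18 to 5.19 as its interval. These intervals, like those below, cover counting error only. The 37 mitochondrial genes alone held 3.89% and 3.98%, and the 6 copies held 1.21% and 1.20%. The haemoglobin genes held 2.33% in replicate 1 and 1.31% in replicate 2, and with them left out of the total the members held 5.21% and 5.25%. The mRNAs with the 6 copies held 4.12% and 4.11%, and the rRNAs held 0.978% and 1.08%.

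Mitochondrial mRNAs were set against the nuclear-encoded subunits of the same complexes, from a list of 75 genes of complexes I, III, IV and V. Copies were added for the mitochondrial genes only. Nuclear subunits were taken on their own row, without any reads they share with other rows. All 13 mRNAs lay above the median of the nuclear subunits of their own complex in both libraries, mt-Nd4l only with Gm10222 added. The own row of mt-Nd4l, at 157 and 117 TPM, lay below the nuclear complex I median of 499 and 524 TPM. For complex I, the median was 1580 ± 1.42 TPM over 7 mitochondrial genes and 511 ± 18.1 TPM over 36 nuclear genes. The highest of the nuclear genes was Ndufc1 at 1374 and 1432 TPM. That mitochondrial median is the level of mt-Nd4l with Gm10222. By summed TPM with only the 6 listed copies it was 1539 ± 25.7 TPM. For complex IV, the median was 8287 ± 3.61 TPM over 3 mitochondrial genes and 1249 ± 6.33 TPM over 14 nuclear genes, with Cox6b1 highest at 2409 and 2483 TPM. For complex V the medians were 11010 ± 44.2 TPM over 2 mitochondrial genes and 1282 ± 12.7 TPM over 16 nuclear genes. For complex III, mt-Cytb was at 5899 ± 11.4 TPM and the 9 nuclear genes had a median of 1050 ± 28.5 TPM.

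The mitochondrial and nuclear ranges met in complex I. There 5 of the 7 mitochondrial genes lay above every nuclear subunit, mt-Nd4l among them only with Gm10222 added. By contrast, mt-Nd5 and mt-Nd6 lay below Ndufc1. In complexes III, IV and V all 6 mitochondrial genes lay above every nuclear subunit of their complex, including Atp5b, the catalytic beta subunit of ATP synthase, at 5123 and 5052 TPM. Over all 13 and 75 genes the log2 ratio of the medians, mitochondrial over nuclear, was 2.90 in replicate 1 and 2.83 in replicate 2. Without the copies its mean was 1.81, against 2.87 with them. These are levels of RNA within a library.

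**Figure D3:**
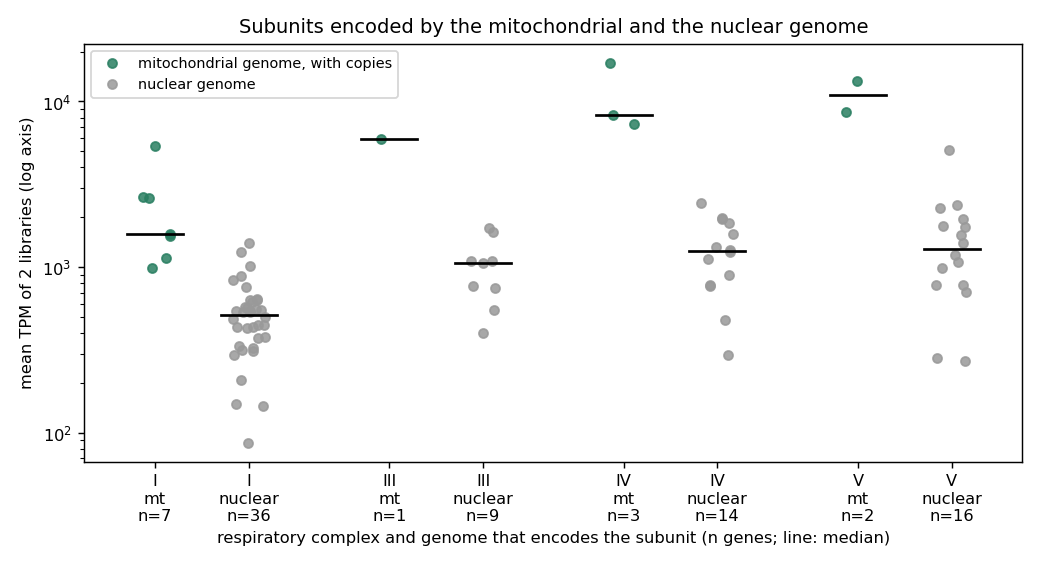
Mean TPM over the 2 libraries on a log axis for subunits encoded by the mitochondrial genome (green, with their copies) and by the nuclear genome (grey), for complexes I, III, IV and V, with the median as a line. The green points of complexes III, IV and V lie above all grey points of the same complex, and those of complex I overlap them.

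The nuclear genes that copy and transcribe mitochondrial DNA, or process and translate its RNA, had medians of 11.9 to 29.3 TPM by list. All 9 transcription genes were at 1 TPM or more in both libraries, with a median of 19.4 ± 3.95 TPM, led by Mterf3 (40.8 ± 0.658 TPM) and by Tfam, which packs mitochondrial DNA and starts its transcription (34.1 ± 5.03 TPM). All 27 measured genes of RNA processing and stability were detected at a median of 19.1 ± 0.375 TPM, led by Slirp, a partner of Lrpprc in mRNA stability (199 ± 8.72 TPM), and by Hsd17b10, a subunit of mitochondrial RNase P (171 ± 6.84 TPM). Replication genes, 10 in number, stood at a median of 11.9 ± 0.382 TPM, with the highest level for the single-strand binding protein gene Ssbp1 (76.9 ± 3.37 TPM). For 9 translation factors the median was 29.3 ± 3.83 TPM, and highest was the elongation factor gene Tufm (149 ± 5.66 TPM). Over 22 tRNA synthetase and charging genes it was 22.8 ± 0.244 TPM. Among them Lars2, the leucyl-tRNA synthetase gene, was at 919 and 1037 TPM.

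The 2 hearts were compared as log2 of scaled expected counts, replicate 2 over replicate 1, with TMM scaling (trimmed mean of M-values, which assumes that most genes are alike). With 1 library per embryo there is no test, and a difference is read against all gene rows with a mean count of at least 100. Most of the summed members had far more counts than that, and abundant rows differed less. The 95th percentile of size was 0.41 for those rows and 0.24 for rows with a mean count of at least 10000. Of 15 mRNAs and rRNAs summed with the 6 copies, 0 differed by 2-fold, against 0.426% of 11958 gene rows with a mean count of at least 100. By 0.32 or more on the log2 scale 1 of the 15 differed, against 8.65% of those gene rows, and that was mt-Nd4l, which reached -0.05 once Gm10222 was added. With Gm10222 the 13 mRNAs ranged from -0.12 for mt-Nd1 to 0.03 for mt-Nd6, with a median of -0.04. The median over the 11958 gene rows was -0.00379, and scaling to the RNA spike-ins moved all rows up by 0.11. Of the 13 mRNAs 1 was above 0 with TMM and 12 with spike-in scaling, so no direction is read from these values.

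The rows of genes and copies moved apart where their sums did not. With a sum nearly unchanged, a rise in 1 row entails a fall in the other, so opposite signs are not a separate observation. mt-Nd3 was lower in replicate 2 by itself, at -0.47 (counting interval -0.54 to -0.40), and Gm28438 was at 0.09, while the summed reads were 13887 and 13888, or -0.05 (-0.09 to -0.02). mt-Co2 was at 0.21 and Gm28661 at -0.32, while their sum of 101404 and 101999 reads was at -0.05. Gm10925 was at 0.39, mt-Atp6 at -0.09 and their sum at -0.04. Among 20 members with a mean count of at least 100 on their own row, 4 differed by 0.32 or more (mt-Nd3, mt-Nd4l, Gm10925 and Gm28661). Of all gene rows above that minimum, most of them less abundant, 8.65% did. All 4 belong to pairs whose rows share reads, and the 6 summed pairs, mt-Nd4l with Gm10222 included, ranged from -0.05 to -0.01. The counting interval of a single row leaves out the uncertainty of the split.

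**Figure D4:**
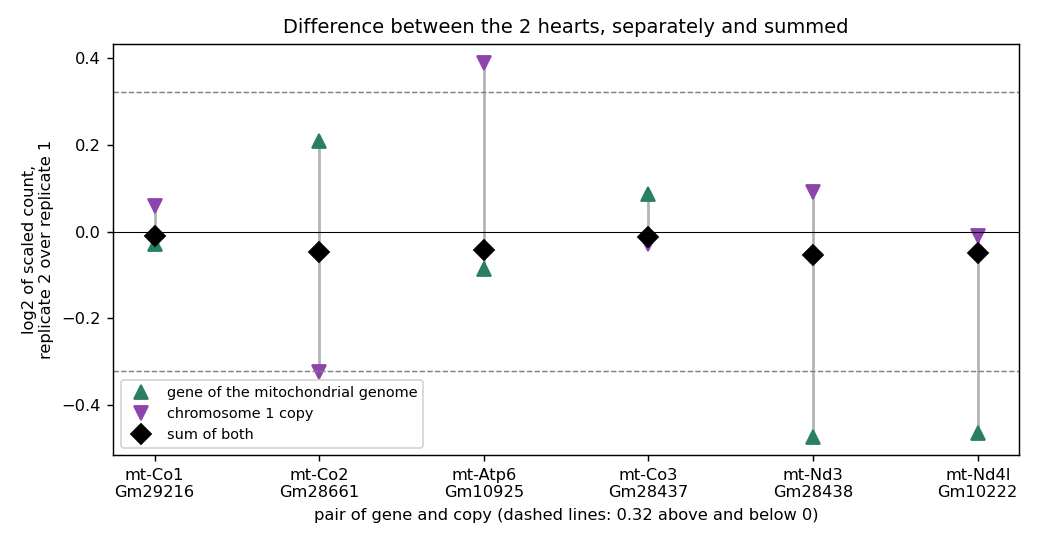
Log2 of the scaled count, replicate 2 over replicate 1, for the gene of the mitochondrial genome (upward triangle), its chromosome 1 copy (downward triangle) and their sum (diamond) in 6 pairs, with dashed lines at 0.32 either way. Gene and copy lie on opposite sides of 0 in 5 of 6 pairs, and all 6 sums lie between -0.05 and -0.01.

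mt-Rnr1 was the member most apart after summing with the 7 copies. It had 50174 counts in replicate 1 and 61070 in replicate 2, at a log2 difference of 0.23 (counting interval 0.21 to 0.25), and mt-Rnr2 had 218430 and 239503 counts at 0.08 (0.07 to 0.09). Both lay above each of the 13 summed mRNAs. Spike-in scaling put them at 0.34 and 0.19 and the mRNA median at 0.07. A change of scaling shifts all rows alike, so it cannot alter that order. Among the 361 gene rows with a mean count of at least 10000, 95% differed by less than 0.24 in size, with a median size of 0.06. The difference of mt-Rnr1 was thus just below the 95th percentile of abundant rows and well above their median. Of the nuclear lists for complexes I to V, 0 of 79 genes differed by 0.32 or more. Among all gene rows with a mean count of at least 100, which include many less abundant ones, 8.65% did. The mitochondrial RNA and DNA machinery had 76 genes with enough counts, of which 1 did (Polg2, a DNA polymerase subunit, with 182 and 253 counts, named after its values were seen).

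**Figure D5:**
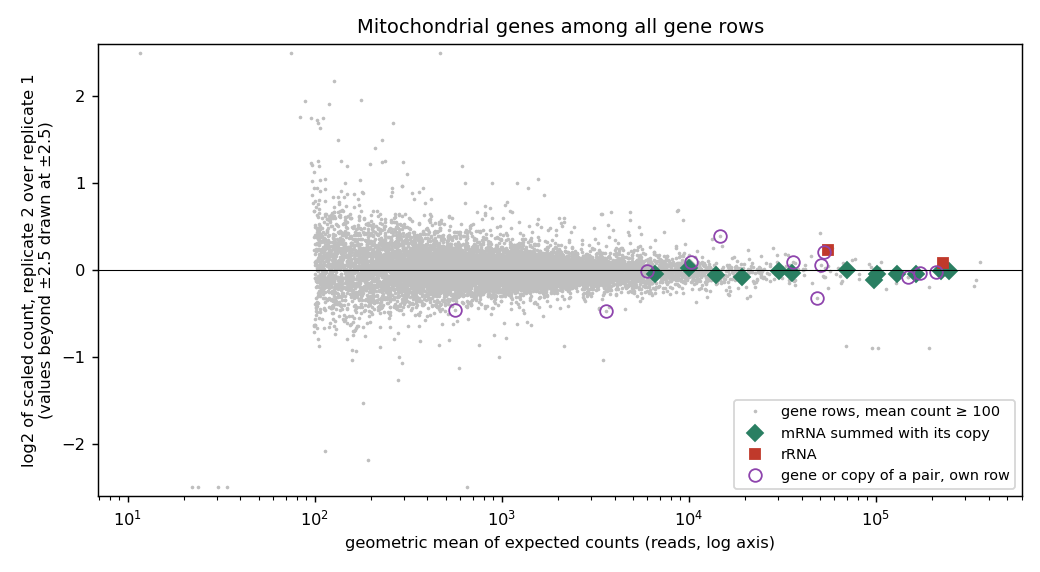
Log2 of the scaled count, replicate 2 over replicate 1, against the geometric mean of the expected counts (log axis) for 11958 gene rows (grey), the summed mRNAs (diamonds), the rRNAs (squares) and the single rows of the pairs (open circles). The diamonds lie between -0.12 and 0.03, while open circles reach 0.39 and -0.47.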

How the data were processed

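Gene and transcript tables, 1 of each per heart, were read. Per the labels and the deposited text files the build was mm10 with annotation release M4. The labels link a document titled for Smart-seq, not used here. Sources used here name no aligner, quantification tool or use of strand. Expected counts, posterior mean counts (estimated counts, each with a posterior SD, another deposited value in reads), TPM, FPKM and TPM interval bounds (signal) are the authors' deposited values; the level of the interval is not stated. Symbols were taken from GENCODE M21, same assembly (42462 of 43346 gene rows, 98.0%), and lengths of all members were equal in both annotations. Numbered and spike-in rows stayed out of gene totals.

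Computed here: shares, sums, windows of 100 nt shared between M21 transcripts, and log2 differences of unrounded expected counts with a prior of 0.5. Scaling used TMM factors (edgeR 4.0.16, R 4.3.3), with DESeq2 1.42.0 as an alternative. Intervals are Wilson for shares and exact Clopper-Pearson for differences. Alignments used Biopython 1.88. Members and gene lists were chosen with earlier results of these data known. The mRNAs, rRNAs and copies are named with their values, the tRNAs are given as a group, and levels are given for up to 3 of the highest genes of each nuclear list (Polg2 was added after its values were seen); Prorp found no row by symbol.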

Additional observations from a re-analysis of the deposited data

Results flagged for a closer look

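Gm10222, a chromosome 1 pseudogene outside the 6 listed copies, had a mean expected count of 5993, with 5899 in replicate 1 and 6086 in replicate 2. It stands out as reads in a row that the listed comparison leaves out, above the 3 counts that a row at 0 allows. Its posterior SD of 260 and 314 reads was the same as that of mt-Nd4l in each library. The origin of these reads was not tested.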

How the results depend on the processing

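The share of gene counts held by the 43 members (mean 5.14%) was 4.95% of all rows with spike-ins, 5.23% without the haemoglobin genes in the total and 3.93% without the chromosome 1 copies. Leaving out 1 library gave 5.09% to 5.18%. The median level of the 13 mRNAs was 2600 TPM without the copies, 3943 in FPKM and 5041 with counts per full length, and 5270 to 5534 TPM with 1 library left out. The log2 ratio to the nuclear subunits was 1.81 without the copies and 2.95 with counts per full length, and 2.83 to 2.90 with 1 library left out. The count of summed members beyond 2-fold was 0 under all 9 alternatives. Beyond 0.32 on the log2 scale it was 1, with 2 under spike-in scaling (mt-Rnr1 added), 4 with each copy by itself and 0 with Gm10222. The sums with Gm10222 and per source length were chosen after seeing the data. With counts per full length mt-Atp8 moved from place 3 to 7 and the order of the 6 lowest mRNAs changed. On that scale mt-Nd6 was lowest in replicate 1 and mt-Nd5 in replicate 2, so the order was not the same in both libraries. No paired analysis was possible because the samples form 1 group. With 2 libraries, spread is known only roughly. The effect of depth on the split between gene and copy was not tested.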
